A study of Rattus norvegicus with 20 samples.

Results

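The genes described here are 8 genes of the myelinating Schwann cell, the rows of the deposited count table whose symbol is Mbp, Pmp22, Prx, Mag, Ncmap, Egr2, Sox10 or Cldn19, out of 32495 rows that carry a gene name. They were picked by name. Each symbol was found once, and each had counts in at least 1 sample.

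Schwann cells wrap the axons of peripheral nerves in myelin, a sheath of tightly packed membrane that speeds conduction, and skeletal muscle holds such nerve branches between its fibres. The sheath is built from adhesive and structural proteins, and its genes are switched on in Schwann cells by the transcription factors Sox10 and Egr2 acting together. Claudin 19, the product of Cldn19, is a tight junction protein of the Schwann cell's non-compact membranes, and it is also made in kidney and eye. A whole muscle sample holds few nerve fibres among many muscle fibres, so these RNAs are rare in it.

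Gastrocnemius muscle, a calf muscle, was taken from female Fischer 344 rats, and all of them carried the Ward colon tumour. TUMOUR STD rats received no chemotherapy and the standard diet (5 libraries). CHEMO STD rats received repeated cycles of CPT-11 (irinotecan) followed by 5-FU on the standard diet (7 libraries). CHEMO FO rats received the same drugs and were switched to a diet containing fish oil, rich in EPA and DHA, when chemotherapy began (8 libraries). No group without a tumour or with fish oil alone was sequenced here, so drug and diet were compared only in tumour-bearing muscle. CHEMO STD libraries 1 and 2 were far more alike than other libraries of a group over well-counted genes (500 or more counts). Their mean chi-square per gene was 2.23, where sampling noise alone gives about 1. Any other 2 libraries from the same group gave 13.7 to 255 (58 such pairs). Both were therefore counted as 1 sample, which left 19 samples (5, 6 and 8). The labels do not tie libraries to separate animals, so each p-value measures the spread between these samples.

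Counts on named genes ranged from 5422118 to 10857477 a library in TUMOUR STD, from 3020821 to 10516783 in CHEMO STD and from 3035841 to 9119394 in CHEMO FO. Summed to 1 sample, CHEMO STD libraries 1 and 2 held 19965891 counts, more than any other sample. The relations with depth given below use that sum. Levels are given as CPM, counts scaled to a common library total after TMM normalisation. CPM is not corrected for gene length, so a level is compared between samples and not between genes. The tissue label was met in every sample. The summed level of 5 skeletal muscle genes was 114000 to 223000 CPM, and that of the 8 members was 59.3 to 254 CPM. In such bulk tissue, fewer Schwann cells and less myelin RNA in each Schwann cell cannot be told apart.

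The sequences just upstream of 3 members are shown because Cldn19 is the gene whose pairing with the myelin genes is tested below, while Pmp22 and Prx are myelin genes whose relation with it passed and did not pass that test. They are the 250 bases before the annotated start, from RefSeq on the rat build GRCr8, which is not the build of the alignments. Cldn19 lies at chr5:138148325-138148574 (plus strand), Pmp22 at chr10:48294682-48294931 (plus strand) and Prx at chr1:91914171-91914420 (plus strand). Capitals mark GTGGGCG, the core of the sites that EGR factors such as Egr2 bind.

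Cldn19: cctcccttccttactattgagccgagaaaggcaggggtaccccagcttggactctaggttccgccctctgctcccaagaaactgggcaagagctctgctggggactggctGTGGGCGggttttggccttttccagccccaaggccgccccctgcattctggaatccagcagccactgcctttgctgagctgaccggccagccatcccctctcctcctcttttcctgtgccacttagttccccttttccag
Pmp22: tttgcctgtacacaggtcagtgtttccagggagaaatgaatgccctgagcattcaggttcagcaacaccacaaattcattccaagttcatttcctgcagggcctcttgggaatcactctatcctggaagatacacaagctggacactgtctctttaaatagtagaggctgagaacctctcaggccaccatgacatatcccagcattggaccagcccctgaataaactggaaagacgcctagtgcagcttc
Prx: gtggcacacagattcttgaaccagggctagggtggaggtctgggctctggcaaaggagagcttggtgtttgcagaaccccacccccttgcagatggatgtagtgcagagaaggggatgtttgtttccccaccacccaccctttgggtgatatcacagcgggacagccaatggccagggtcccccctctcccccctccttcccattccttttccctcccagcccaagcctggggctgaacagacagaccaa

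Both strands were searched for GTGGGCG, for the longer GCGTGGGCG that contains it, and for the SOX cores ACAAAG and ACAATG. Of the 7 members with a promoter in the table, Cldn19 alone held GTGGGCG, beginning at position -140 from the start, and none held GCGTGGGCG. Among all 33469 rat promoters of that length, 6.27% held GTGGGCG and 0.478% held GCGTGGGCG. Mag held ACAAAG and 1 of the 2 listed Mbp promoters held both SOX cores, and ACAAAG occurred in 16.3% and ACAATG in 11.1% of all promoters. These matches are letters in a window and were not tested as binding sites.

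Among the structural genes, Mbp encodes myelin basic protein, which holds the inner faces of the membrane together. In TUMOUR STD, Mbp stood at 13.9, 11.2, 51.0, 12.9 and 11.7 CPM in replicates 8 to 12. In CHEMO STD it ranged from 7.02 to 62.7 CPM (median 16.8), with 62.7 in the sample of libraries 1 and 2 and 38.9 in replicate 7. In CHEMO FO it ranged from 9.16 to 15.2 CPM (median 11.8). So 3 samples of the rats on the standard diet stood high, all 8 fish oil samples lay within the range of the remaining 8, and the groups overlapped.

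Prx encodes periaxin, a scaffold of the myelinating Schwann cell's outer membrane. Its levels were 10.9, 9.63, 40.6, 8.56 and 10.8 CPM in TUMOUR STD, 7.76 to 32.6 (median 10.4) in CHEMO STD and 4.18 to 14.6 (median 8.41) in CHEMO FO. Pmp22 encodes peripheral myelin protein 22, a membrane protein of compact myelin that other cells make as well. It stood at 62.1, 46.5, 154, 61.5 and 75.8 CPM in TUMOUR STD, at 44.7 to 126 (median 55.7) in CHEMO STD and at 41.4 to 71.0 (median 60.3) in CHEMO FO. The highest samples were again TUMOUR STD 10, the CHEMO STD sample of libraries 1 and 2 and CHEMO STD 7. For Mbp, Prx and Pmp22, the plot of member levels by sample shows these 3 points above the rest, while the remaining samples of the 3 groups overlapped.

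**Figure D1:**
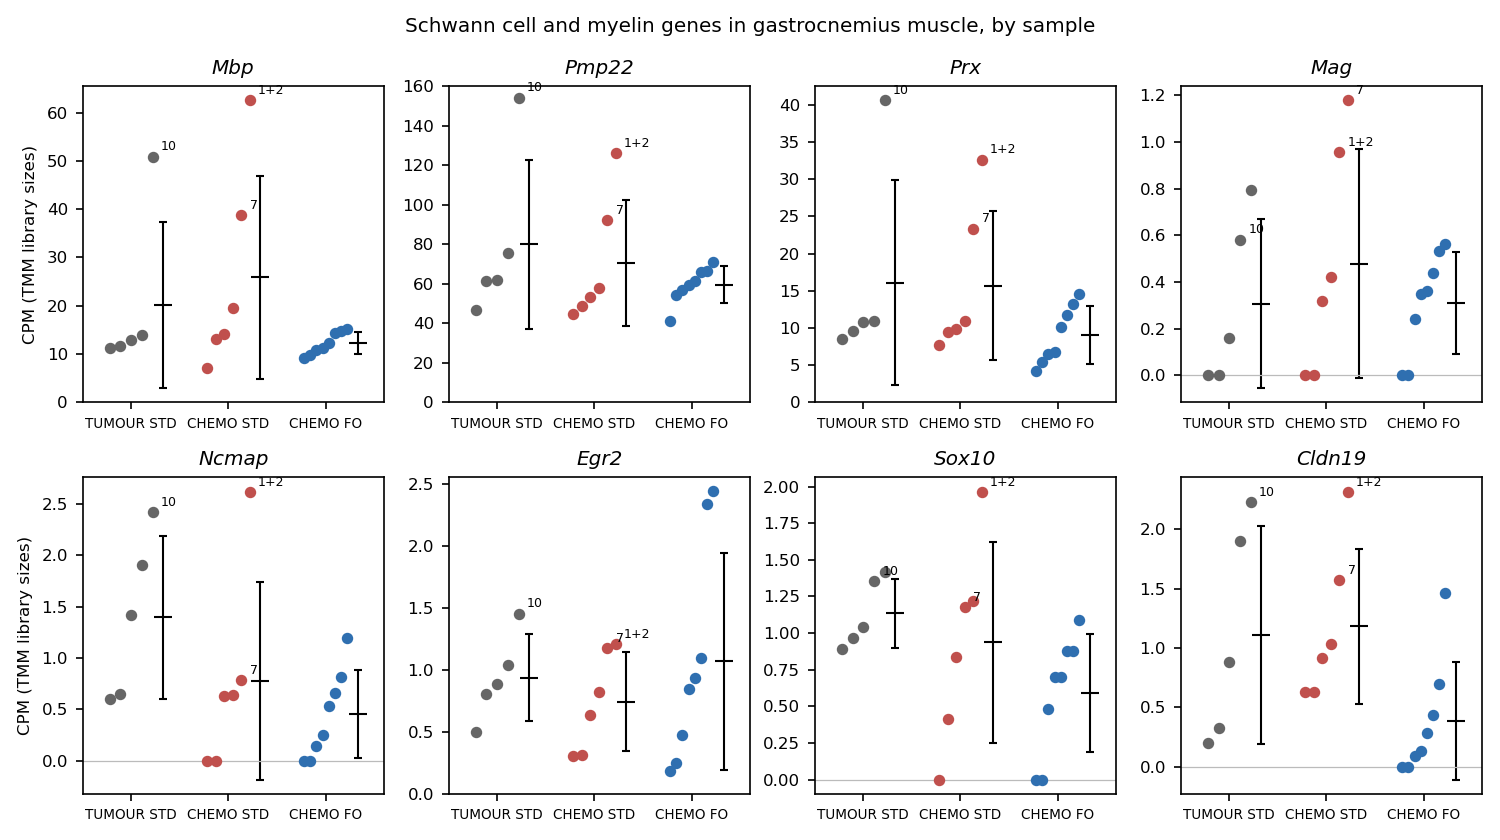
Level of each member (CPM on TMM library sizes, linear axes) in 5 TUMOUR STD, 6 CHEMO STD and 8 CHEMO FO samples, with the mean and SD as black bars beside the points. Numbers mark TUMOUR STD 10, CHEMO STD 1+2 and CHEMO STD 7, which were the 3 highest samples for Mbp (51.0, 62.7 and 38.9 CPM), Pmp22 and Prx.

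For the chemotherapy effect (CHEMO STD versus TUMOUR STD), no member was called. "Called" means an unadjusted p under 0.05 together with a change of at least 1.5-fold, the thresholds in the study's methods, in edgeR's quasi-likelihood fit of all 3 groups. Mbp, Pmp22 and Prx passed the filter on low counts among 11716 genes tested. Of those genes 2.38% were called in this comparison, 1.45% lower and 0.930% higher. The log2 fold changes were 0.38 for Mbp (SE 0.437, adjusted p = 0.828 in edgeR), -0.17 for Pmp22 (SE 0.272, adjusted p = 0.876 in edgeR) and -0.02 for Prx (SE 0.420, adjusted p = 0.993 in edgeR). The value for Mbp rested on single samples. Without TUMOUR STD 10 it was 1.10 and called higher, and without the sample of libraries 1 and 2 it was -0.12 and not called.

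For the diet effect (CHEMO FO versus CHEMO STD), 2 of the 3 tested members were called lower. Of all genes tested, 1.66% were called, 1.05% lower and 0.615% higher. Mbp was lower by a log2 fold change of -1.12 (SE 0.399, adjusted p = 0.974 in edgeR) and Prx by -0.82 (SE 0.388, adjusted p = 0.974 in edgeR). Pmp22 gave -0.25 (SE 0.245, adjusted p = 0.974 in edgeR) and was not called. No gene of the whole table reached an adjusted p below 0.05 in this comparison by edgeR or by DESeq2, with 527 at an unadjusted p below 0.05 in edgeR. The study's own list of changed genes, drawn from these samples, holds Mbp, Prx and Cldn19, so these calls are not independent evidence beside it. The fall that the study reported for Cldn19 was larger than the sizes given below.

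Both diet calls depended on the high CHEMO STD samples. Prx lay close to the threshold (unadjusted p = 0.0460 in edgeR). Of the 2 calls, 1 was also lost, and the other kept, when CHEMO FO 13, 15, 16, 17 or 18 was left out singly. Without the sample of libraries 1 and 2, the log2 fold change was -0.60 for Mbp and -0.43 for Prx, and neither was called. Without CHEMO STD 7, Mbp stayed called at -0.98 and Prx, at -0.69, was not called. Without all 3 high samples, the values were -0.12 for Mbp, -0.05 for Prx and 0.21 for Pmp22, and none was called. That choice of samples was made after their values were seen. An exact two-sided permutation test of mean log2 CPM, which gives each sample the same weight, gave a difference of -0.72 for Mbp (p = 0.109) and -0.68 for Prx (p = 0.103).

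CHEMO FO was also set against TUMOUR STD, where 3.60% of all genes tested were called, 2.51% lower and 1.09% higher. Prx was called at a log2 fold change of -0.84 (SE 0.402, adjusted p = 0.550 in edgeR), while Mbp at -0.74 (SE 0.418, adjusted p = 0.588 in edgeR) and Pmp22 at -0.43 (SE 0.256, adjusted p = 0.608 in edgeR) were not. The call of Prx lay close to the threshold (unadjusted p = 0.0491 in edgeR). It was lost without TUMOUR STD 10, and also without some single samples of CHEMO FO or of CHEMO STD, which share the fit. Without TUMOUR STD 10, Prx gave -0.13, Mbp -0.02 and Pmp22 -0.05, and none was called. The 3 comparisons share their samples, so they are not separate tests of one another.

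The other 5 members had too few counts for the filter, with 61 counts of Mag, 141 of Ncmap, 114 of Egr2, 130 of Sox10 and 126 of Cldn19 over the 19 samples. Each was tested alone, by exact two-sided permutation of log2 CPM means (with a prior count of 2), and called by the same p and fold thresholds. Beside it stands an edgeR fit of 19364 genes with no filter. That fit called 5.04% of genes in CHEMO STD versus TUMOUR STD (3.02% lower), 3.76% in the diet comparison (2.54% lower) and 5.77% in CHEMO FO versus TUMOUR STD (4.08% lower). On the log2 scale with a prior count, changes of such low genes are understated.

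Mag encodes a myelin-associated glycoprotein on the membrane that faces the axon. Its levels were 0, 0.794, 0.582, 0.161 and 0 CPM in TUMOUR STD, 0 to 1.18 (median 0.368) in CHEMO STD and 0 to 0.562 (median 0.355) in CHEMO FO. In 11 of 19 samples it had fewer than 3 counts. In the 6 samples with no count, a level of up to 0.520 to 0.916 CPM remained possible (3 counts, counting error only), so a difference within this range was not detectable. The differences in mean log2 CPM were 0.31, -0.19 and 0.12 in the order of the comparisons above, with exact p from 0.610 to 0.784.

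Ncmap encodes a protein of non-compact myelin. Its levels were 1.91, 0.596, 2.42, 0.646 and 1.42 CPM in TUMOUR STD, 0 to 2.62 (median 0.632) in CHEMO STD and 0 to 1.20 (median 0.393) in CHEMO FO. The highest value, 2.62 CPM, belonged to the CHEMO STD sample of libraries 1 and 2, and the next in that group was 0.785. CHEMO FO was lower than TUMOUR STD by a difference of -1.27 in mean log2 CPM (SE 0.449, exact p = 0.0256), and the fit with no filter gave -1.50 (SE 0.685, adjusted p = 0.533 in edgeR) and called it lower. Without TUMOUR STD 10 the exact p was 0.0586, and without TUMOUR STD 8 it was 0.0545. Against CHEMO STD the difference was -0.30 (exact p = 0.594).

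The regulators did not pass a test in any of the 3 comparisons. Sox10, which Schwann cells need from their origin onward, stood at 1.04, 0.893, 1.36, 0.969 and 1.42 CPM in TUMOUR STD, 0 to 1.96 (median 1.01) in CHEMO STD and 0 to 1.09 (median 0.699) in CHEMO FO. Its largest difference was -0.87 in mean log2 CPM for CHEMO FO versus TUMOUR STD (SE 0.332, exact p = 0.0521). Egr2, which drives the myelin programme and is also an early response gene in other cells, stood at 1.04, 0.496, 1.45, 0.807 and 0.885 CPM in TUMOUR STD, 0.305 to 1.21 (median 0.730) in CHEMO STD and 0.181 to 2.44 (median 0.888) in CHEMO FO. Its highest levels, 2.44 and 2.34 CPM, were in CHEMO FO 16 and 13 and not in the samples high in Mbp. Its differences were -0.29, 0.23 and -0.07 in mean log2 CPM, with exact p from 0.364 to 0.894.

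Cldn19 was the low-count member with a diet difference. Its levels were 1.91, 0.198, 2.23, 0.323 and 0.885 CPM in TUMOUR STD, 0.629 to 2.32 (median 0.974) in CHEMO STD and 0 to 1.46 (median 0.207) in CHEMO FO. All 6 CHEMO STD samples lay above 6 of the 8 CHEMO FO samples, while CHEMO FO 13 and 16 lay at 1.46 and 0.697 CPM within the CHEMO STD range. CHEMO FO was lower than CHEMO STD by a difference of -1.28 in mean log2 CPM (SE 0.399, exact p = 0.0143). The fit with no filter gave -1.87 (SE 0.676, adjusted p = 0.77 in edgeR) and called it lower. In CHEMO FO, 7 of the 8 samples had fewer than 3 counts of Cldn19, so the size of the difference is poorly set. In the 2 of them with no count, a level of up to 0.719 to 0.757 CPM remained possible (3 counts, counting error only). That lies above the lowest CHEMO STD level of 0.629 CPM, so these samples are not shown to lie below every CHEMO STD sample.

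The Cldn19 diet difference passed when any one sample was left out, from -1.51 to -1.09 in mean log2 CPM. Without CHEMO STD 1 and 2 it was -1.09 (exact p = 0.0334), and without all 3 high samples it was -0.94 (exact p = 0.0768). Against TUMOUR STD the difference was -1.02 (SE 0.569, exact p = 0.0909), and the fit with no filter called it lower at -1.71 (SE 0.700). CHEMO STD and TUMOUR STD differed by 0.26 (SE 0.529, exact p = 0.621). Whether the diet difference of Cldn19 is unlike that of Mbp was not tested.

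**Figure D2:**
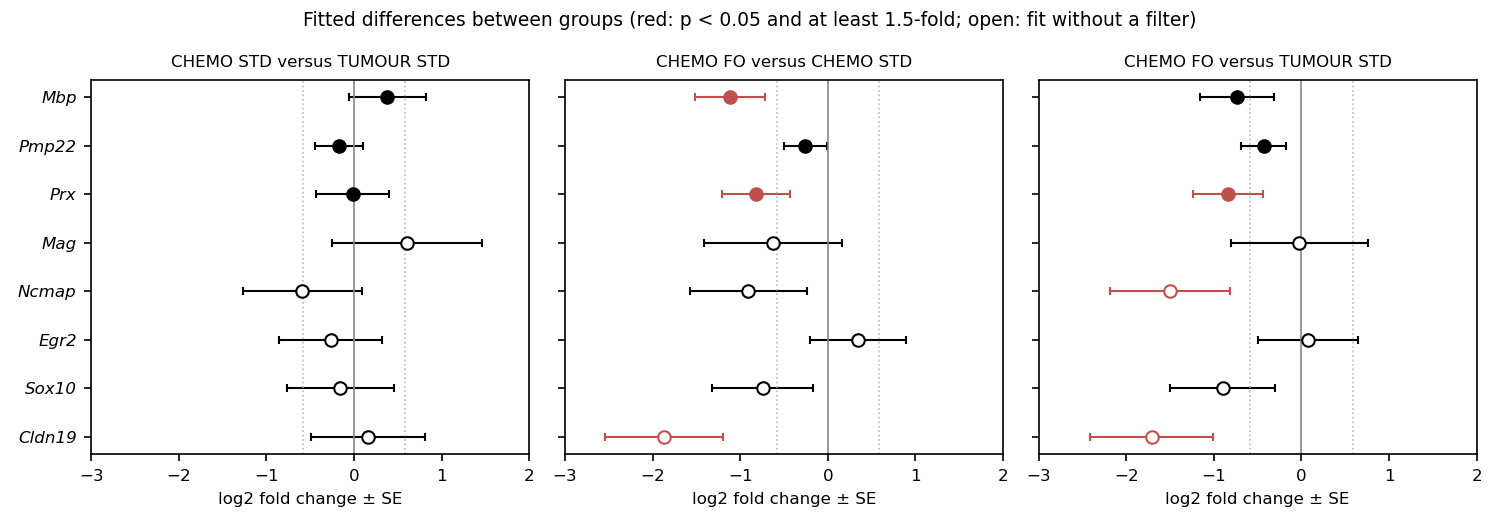
Fitted log2 fold change (x axis) of the 8 members with its SE in the 3 comparisons, filled circles from the fit of the 11716 genes that passed the filter and open circles from the fit with no filter. Red marks the called members and dotted lines a 1.5-fold change. The called members include Mbp (-1.12), Prx (-0.82) and Cldn19 (-1.87) for CHEMO FO versus CHEMO STD.

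By summed CPM, the samples high in the members were also high in other genes of the myelin sheath and the Schwann cell. Their sums were not high in every list of nerve genes. Over 12 other myelin sheath genes, the summed level was 124 CPM in TUMOUR STD 10, 117 in the sample of libraries 1 and 2 and 103 in CHEMO STD 7, against medians of 68.7 CPM in TUMOUR STD and 60.3 in CHEMO STD and a range of 34.6 to 78.4 in CHEMO FO. The 13 Schwann cell lineage genes, of which 12 are in the table, summed to 103.7, 69.6 and 87.9 CPM in those samples. Their median sums were 57.6 in TUMOUR STD, 54.1 in CHEMO STD and 44.8 in CHEMO FO. In CHEMO STD 7, S100b alone gave 43.6 of the 87.9 CPM, where the CHEMO STD median of S100b was 8.1. The axon genes, mostly neurofilaments and other neuronal RNAs, summed to 15.7, 9.22 and 13.3 CPM, against medians of 9.63 in TUMOUR STD and 10.3 in CHEMO STD. Node and paranode genes summed to 156, 132 and 112 CPM, the last being the lowest of CHEMO STD, against medians of 140 in TUMOUR STD and 136 in CHEMO STD. Myelination signalling genes, at 197, 203 and 191 CPM, lay close to their medians of 197 and 195. Summed CPM follows the most abundant genes of a list. The node gene Ank3 had a mean of 118 CPM in CHEMO STD, with its lowest value, 87.2, in CHEMO STD 7. The signalling genes Tead1 and Zeb2 had means of 65.1 and 56.6 CPM there. Single genes of these lists differed. Erbb2, Erbb3 and Cntn2 were highest of their groups in TUMOUR STD 10 and the sample of libraries 1 and 2, while Nab1, Cntnap1 and Gldn were not.

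The same samples also stood out in markers of other tissues, some of them shared. TUMOUR STD 10 and the sample of libraries 1 and 2 were both high in tendon markers (1788 and 1286 CPM, group medians 673 and 463) and in fibroblast markers (12660 and 11180 CPM, group medians 5212 and 3562), while CHEMO STD 7 was below its group median in both, at 394 and 3185 CPM. Skin keratins summed to 331 CPM in TUMOUR STD 10 against a TUMOUR STD median of 2.42, a highest CHEMO STD value of 2.48 and a highest CHEMO FO value of 74.9 (replicate 16), and Krt14 was at 0 in the other 4 TUMOUR STD samples and in all 6 CHEMO STD samples. Perineurial markers, genes of the sheath around nerve bundles, summed to 98.3 CPM in TUMOUR STD 10 and 83.2 in the sample of libraries 1 and 2. The group medians were 29.2 to 37.2. Most of those sums was Itgb4, a gene also of Schwann cells, at 84.8 and 73.4 CPM. CHEMO STD 7 led in leukocyte markers (374 CPM, group median 137) and in adipocyte markers (558 CPM, group median 141). Their part in the member levels was not tested. Over the 19 samples, the deviations of log2 depth within groups had r of 0.609 with those of Mag, 0.573 with Ncmap, 0.496 with Mbp, 0.461 with Pmp22, 0.458 with Prx, 0.347 with Sox10, 0.0223 with Cldn19 and -0.106 with Egr2, and the part of depth was not tested either.

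**Figure D3:**
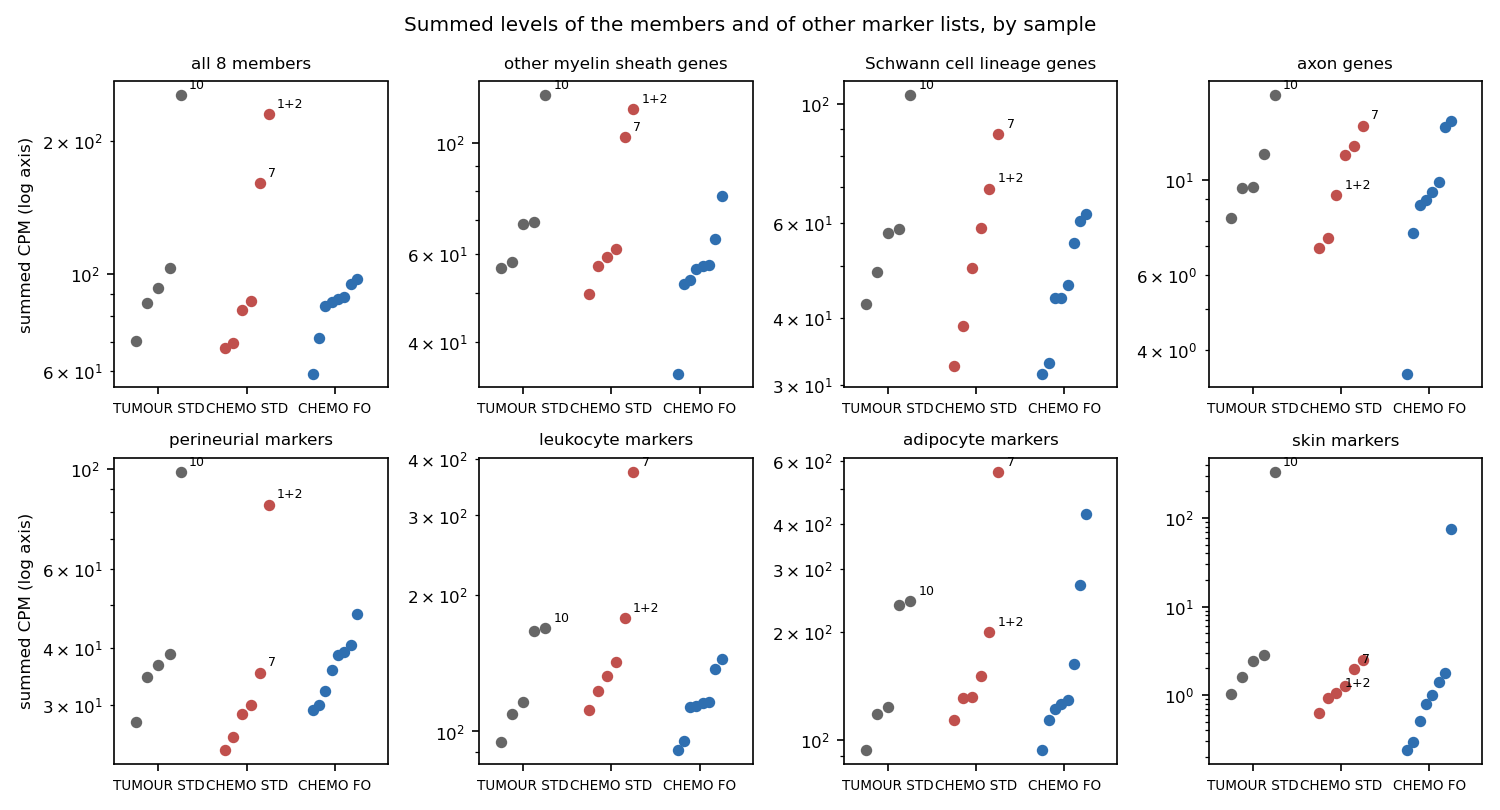
Summed CPM (log axis) of the 8 members and of 7 marker lists in each sample, by group, with the 3 samples high in the members numbered. TUMOUR STD 10 led its group in all 8 panels (skin keratins 331 CPM), while CHEMO STD 1+2 led in myelin and perineurial genes and CHEMO STD 7 in Schwann cell lineage, axon, leukocyte and adipocyte genes.

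The rest of the sheath's genes were read from lists chosen with earlier results of these data known. In the diet comparison, 4 of the 12 other myelin sheath genes were tested, all 4 had a negative log2 fold change and 1 was called lower, with a median of -0.52 against -0.01 over all genes tested, of which 51.3% were negative. That gene was Mal, a lipid-raft protein of myelin, at -0.97 (SE 0.357, adjusted p = 0.974 in edgeR). With no filter, 12 of 12 were negative and 5 were called lower (Pmp2, Mal, Drp2, Bcas1 and Dusp15), while 51.5% of all genes were negative. Several of the 12 had few counts. Mobp had 1 count in all, and mean CPM of Gjb1 was higher in CHEMO FO (0.206) than in CHEMO STD (0.168), so the sign of such genes says little. The study's own list for this comparison holds several of them, so this is not independent evidence of a direction.

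The TUMOUR STD samples held 3.71 to 8.15 CPM of Mal (median 4.60). The CHEMO STD samples held 1.65 to 14.5 CPM (median 6.67), with the top value in the sample of libraries 1 and 2, and the CHEMO FO samples 1.77 to 6.37 CPM (median 4.09). The 3 groups overlapped, and without that sample the diet value of Mal was -0.68 and not called. None of the 4 was called in CHEMO STD versus TUMOUR STD (median 0.03) or in CHEMO FO versus TUMOUR STD (median -0.41). Of the myelin lipid enzymes, Ugt8, which makes the galactolipids of myelin, was called lower with fish oil at -1.33 (SE 0.625), 1 of 3 tested, and none of the 3 was called in the other comparisons.

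Genes of the Schwann cell and axon beyond the sheath were called in few cases. None of 6 Schwann cell lineage genes tested was called for diet (median -0.31). L1cam, an adhesion molecule of axons and immature Schwann cells, was called lower at -1.12 (SE 0.422) in CHEMO STD versus TUMOUR STD and at -0.92 (SE 0.397) in CHEMO FO versus TUMOUR STD. Of 11 myelination signalling genes, none was called for diet (median -0.10), and 1 was called lower for CHEMO FO versus TUMOUR STD, Nfatc4 at -0.61 (SE 0.253), a factor that responds to calcium. Of 7 node and paranode genes, 1 was called lower for diet, Kcna2 at -0.99 (SE 0.353), a potassium channel that flanks the nodes. None of 3 axon genes was called in any comparison. Of 14 other claudins with counts, 3 were tested, and Cldn1, the claudin of the perineurial barrier and of skin, was called lower at -0.76 (SE 0.325) in CHEMO FO versus TUMOUR STD.

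Markers of other cell types were called beside them. Of 5 leukocyte genes tested, Ptprc (the pan-leukocyte antigen CD45) and Lyz2 (a lysozyme of macrophages) were called higher in CHEMO STD versus TUMOUR STD, at 1.16 (SE 0.385) and 0.72 (SE 0.262), and lower with fish oil versus CHEMO STD, at -1.16 (SE 0.340) and -0.80 (SE 0.231). These calls rested on CHEMO STD 7 (65.8 CPM of Ptprc and 170 of Lyz2, group medians 12.0 and 58.5). Without it the values were 0.39 and 0.31 in the first comparison and -0.38 and -0.39 in the second, and none was called. Of 2 perineurial genes tested, Slc2a1, a glucose transporter also made elsewhere, was called higher with fish oil at 0.72 (SE 0.348). Against TUMOUR STD, 3 of 4 smooth muscle genes (Myh11, Acta2 and Tagln) were called lower in both chemotherapy groups, as were 3 of 7 tendon genes in each (Fmod and Kera in both, with Thbs4 in CHEMO STD and Tnmd in CHEMO FO). Col1a1, 1 of 6 fibroblast genes, was called lower at -1.37 (SE 0.599) in CHEMO FO versus TUMOUR STD. With any 1 sample left out, a choice made after the values were seen, the calls of Myh11 and Acta2 in both comparisons, of Tagln in CHEMO STD versus TUMOUR STD and of Kcna2 for diet were kept, and each other call in the lists outside the members was lost without at least 1 sample. Those of L1cam, Nfatc4, Cldn1, Col1a1, Fmod, Thbs4 and Kera were lost without TUMOUR STD 10, and that of Tnmd without TUMOUR STD 12. No endothelial, adipocyte or skeletal muscle gene was called in any comparison, and no skin gene passed the filter. Their part in the member values was not tested.

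The test of whether Cldn19 follows the myelin genes used deviations of log2 CPM from the group means over the 19 samples, with two-sided p from 100000 permutations within groups and adjustment over the 7 relations. Of those, 4 passed an adjusted p of 0.05. The closest partner was Egr2, with r = 0.817 (adjusted p = 0.00014 by permutation) and rho = 0.825 (adjusted p = 7e-05 by permutation, the smallest raw p that the permutations can give being 1e-05). Pmp22 had r = 0.708 (adjusted p = 0.00042) and rho = 0.742 (adjusted p = 0.00136), both by permutation.

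Mbp and Sox10 were looser partners, with r = 0.491 (adjusted p = 0.0321) and r = 0.492 (adjusted p = 0.0361) by permutation and rho of 0.520 and 0.538. Prx had r = 0.345 (adjusted p = 0.250), Ncmap 0.0730 (adjusted p = 0.882) and Mag -0.00457 (adjusted p = 0.985) by permutation. Against the mean of all 7 other members, each scaled to its own spread, Cldn19 had r = 0.577, given with no test.

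When the 2 samples farthest from the median of the partner were left out, r for Mbp fell to 0.220 and r for Prx was -0.00305. Both times these were TUMOUR STD 10 and the CHEMO STD sample of libraries 1 and 2, so the relation with Mbp rests on those samples. With them left out Pmp22 kept r = 0.631, and Egr2, whose farthest samples were CHEMO FO 16 and 18, had r = 0.851. Without all 3 high samples (16 samples), Egr2 alone of the 7 passed (r = 0.788, adjusted p = 0.00224 by permutation), Pmp22 gave r = 0.657 (adjusted p = 0.0640) and Mbp r = 0.0753 (adjusted p = 0.717). Cldn19 had under 3 counts in 10 of 19 samples and Egr2 in 5, so each r is imprecise.

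**Figure D4:**
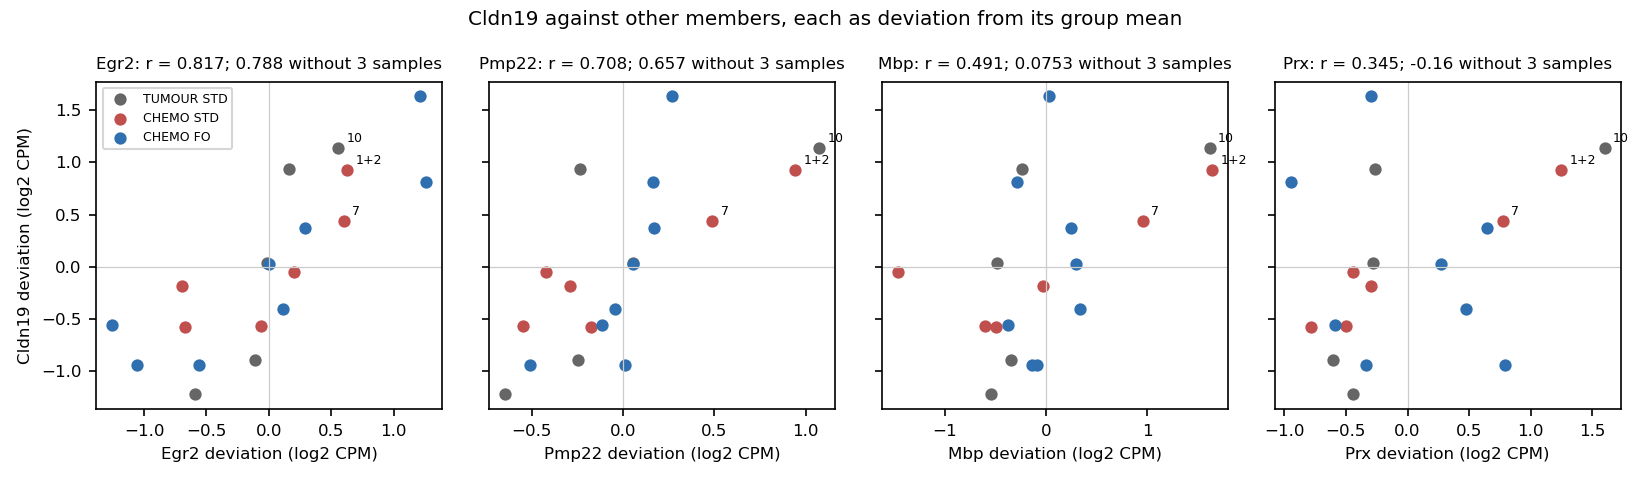
Deviation of Cldn19 from its group mean (y axis, log2 CPM) against that of Egr2, Pmp22, Mbp and Prx (x axes, log2 CPM), 1 point a sample, coloured by group, with the 3 samples high in the members numbered. The points follow a line for Egr2 (r = 0.817) and Pmp22 (r = 0.708), while for Mbp (r = 0.491) and Prx (r = 0.345) the numbered points lie at the upper right of an otherwise flat cloud.

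Within single groups the partners differed. In CHEMO STD (n = 6) the relation of Cldn19 with Prx passed (r = 0.963, exact p = 0.00417, adjusted p = 0.0292), with rho = 0.943 (exact adjusted p = 0.117). There r was 0.909 for Pmp22 (exact adjusted p = 0.0681), 0.798 for Egr2 and 0.796 for Mbp (exact adjusted p = 0.109 each). Without the sample of libraries 1 and 2 and CHEMO STD 7, r was 0.700 for Prx, -0.0715 for Pmp22 and -0.386 for Mbp over the 4 that remain.

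In CHEMO FO (n = 8), where no sample stood apart in Mbp, Cldn19 followed Egr2 (r = 0.890, exact p = 0.00293, adjusted p = 0.0205), with rho = 0.874 (exact adjusted p = 0.0278). Cldn19 had 0 to 5 counts a sample in this group, fewer than 3 in 7 of the 8, and Egr2 had fewer than 3 in 3 samples. The relations of Cldn19 in CHEMO FO therefore rest on very few counts. There r was 0.781 for Pmp22 (exact adjusted p = 0.0724, with rho = 0.874 and exact adjusted p = 0.0278), 0.121 for Mbp (exact adjusted p = 0.773) and -0.327 for Prx (exact adjusted p = 0.600). Ncmap gave a negative r that did not pass (r = -0.727, exact p = 0.0418, adjusted p = 0.0976). No correlation was computed within the 5 TUMOUR STD samples, since at least 6 were required. Whether the relations differ between CHEMO STD and CHEMO FO was not tested.

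Among the members themselves, 12 of 28 pairs had r above 0.5 (median 0.485), given with no test. Mbp, Pmp22 and Prx formed the closest trio, with r from 0.761 to 0.862. Without the 3 high samples, the trio had r from 0.0819 to 0.407, the median of the 28 pairs was 0.0774, and the 4 pairs still above 0.5 were Egr2 with Cldn19 (0.788) and Pmp22 with Cldn19 (0.657), Sox10 (0.638) and Egr2 (0.572). The points share their libraries and depth.

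**Figure D5:**
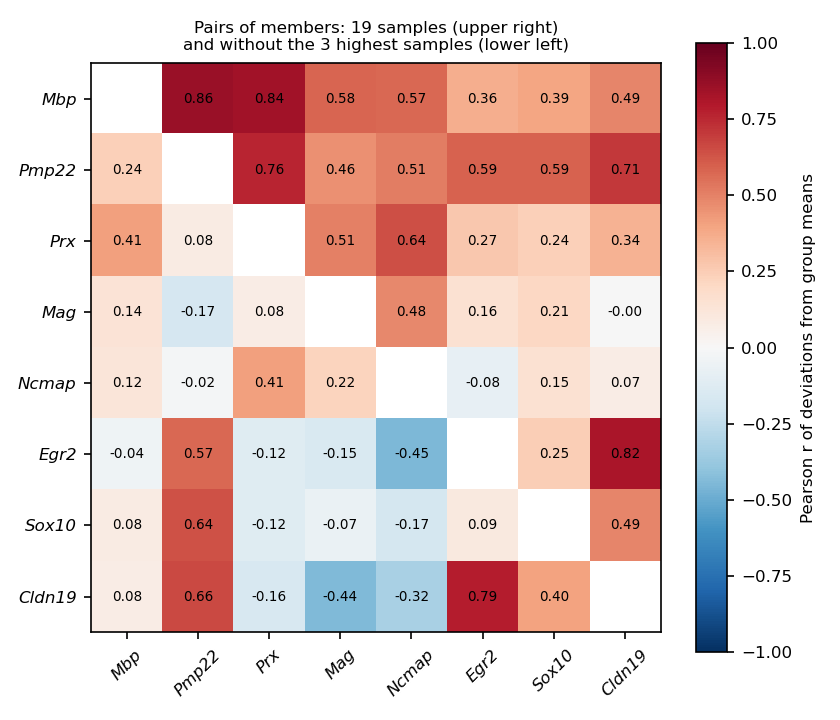
Pearson r (colour scale from -1 to 1) between deviations of members from their group means, over 19 samples above the diagonal and without the 3 samples high in the members below it. Above, Mbp, Pmp22 and Prx form a block from 0.761 to 0.862. Below, the values over 0.5 join Cldn19, Egr2, Sox10 and Pmp22.

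The tested genes outside the members whose deviations were most like the mean of the 7 members other than Cldn19 included Npdc1 (0.880), Drp2 (0.865), Csrp1 (0.854), Reln (0.854), Plekha4 (0.848), Gpc3 (0.847), Ehd2 (0.838), Itgb4 (0.833) and Ppp1r18 (0.828). Drp2 is a partner of periaxin in Schwann cells, and Itgb4 is an integrin of Schwann and perineurial cells. Without the 3 high samples these 9 had r from 0.337 to 0.722, with Plekha4 the highest. Likeness was measured over 19 samples and is a description.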

How the data were processed

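The authors trimmed reads with Trim Galore 0.4.1, aligned them to the rat genome (Rnor 6) with TopHat2 2.0.10 and Bowtie2, and deposited unnormalised counts per gene from Partek Flow. Libraries were stranded and rRNA-depleted. Whether counting used strand is not given in the sources used here, and other genes overlap Mbp, Pmp22 and Mag (noncoding RNAs), Prx (a pseudogene) and Ncmap (a coding gene), so reads of such pairs may be mixed. Rows with no gene name (388, 0.102% to 0.272% of counts) were left out, and 2 counts of a muscle myosin, deposited in rounded scientific notation, were used as written. CHEMO STD libraries 1 and 2 were summed and counted as 1 sample.

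The members, the other gene lists and the tests were chosen with earlier results of these data known. Counts were fitted in R 4.3.3 with edgeR 4.0.16 (default filter, minimum count 10 and total 15, TMM, quasi-likelihood test), all 3 groups together, with Benjamini-Hochberg adjustment over all 11716 genes. Members below the filter were tested by exact permutation of mean log2 CPM (prior count 2). Named beside the members were, by rule, up to 4 called genes of each other list of nerve genes and the 10 genes most like the members. Genes withheld from this text were left out of the lists and are not reported here. Alternatives were DESeq2 1.42.0, limma 3.58.1 (voom with quality weights), RLE factors, library totals, other filters, only the 2 groups compared, other treatments of CHEMO STD 1 and 2, and each sample left out. Code was tested on simulated data. Figures used matplotlib 3.10.9. Promoter motifs were searched in the RefSeq table (GRCr8). A floor of 3 counts covers counting error only.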

Additional observations from a re-analysis of the deposited data

Results flagged for a closer look

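Across 24 sets of member levels (8 genes in 3 groups), 4 held a sample whose gap to its nearest neighbour took more of the group's range than Dixon's 95% critical value. Chance alone flags about 1 in 20 such sets if levels are normally spread, which was not tested. The sets share samples and are not independent, so 4 of 24 cannot be set against that rate. In TUMOUR STD, replicate 10 stood apart for Mbp (51.0 CPM, next 13.9), Pmp22 (154 CPM, next 75.8) and Prx (40.6 CPM, next 10.9). In CHEMO STD, the sample of libraries 1 and 2 stood apart for Ncmap (2.62 CPM, next 0.785). No CHEMO FO sample was set apart in this way for any of the 8 members. The reason these samples stood apart was not tested.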

How the results depend on the processing

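No paired analysis was possible because the library numbers run on from group to group and no number is shared between groups.

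Of the 3 tested members, the count called for CHEMO FO versus CHEMO STD (2) was 1 with only library 2 of the near-identical pair or without TUMOUR STD 10 and that pair, and 0 by limma voom, by exact permutation or without the 3 high samples. Leaving out 1 sample gave 0 to 2. For CHEMO FO versus TUMOUR STD (1) it was 2 with only those groups fitted, and 0 with RLE factors, the stricter filter, both libraries of the pair kept, only library 1 kept, voom, exact permutation or either set of high samples left out. Leaving out 1 sample gave 0 to 1 there and in CHEMO STD versus TUMOUR STD. Of the 5 low members, the 1 called for diet became 0 without the 3 high samples, with 1 in each leave-one-out fit. The 1 called against TUMOUR STD became 2 with no filter, DESeq2, or only library 1 or 2, 0 without the high samples, and 0 to 3 when leaving out 1 sample. The 4 passing Cldn19 relations became 2 on library totals, 1 without the 3 high samples and 2 to 4 when leaving out 1.

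Signs of log2 values changed only where the reported value was at most 0.38 in size, and no value with a changed sign was called. Prx for CHEMO STD versus TUMOUR STD became 0.02 (totals), 0.19 (both libraries), 0.14 (voom), 0.31 (without TUMOUR STD 10 and the pair) and 0.04 (permutation). With high samples left out, Mag became -0.05 for that comparison, and for diet Pmp22 became 0.21, Mag 0.01 and 0.35 and Ncmap 0.08 and 0.28. Pmp22 for diet became 0.02 by voom. Against TUMOUR STD, Mag with fish oil became -0.02 with no filter, and Egr2 became 0.08 (no filter), 0.09 (DESeq2) and 0.07 (high samples left out). The r of Cldn19 became -0.160 for Prx and -0.324 for Ncmap without the 3 samples, -0.153 for Ncmap with a prior count of 0.5, and for Mag 0.0616 (both libraries) and 0.0953 (rho). Leaving out 1 sample, the log2 values ran from -0.12 to 1.10 for Mbp, -0.42 to 0.21 for Pmp22, -0.39 to 0.69 for Prx and -0.05 to 0.54 for Cldn19 in CHEMO STD versus TUMOUR STD, from -0.41 to 0.05 for Mag and -0.58 to 0.08 for Ncmap for diet, and from -0.09 to 0.38 for Mag and -0.25 to 0.11 for Egr2 in CHEMO FO versus TUMOUR STD. The r ran from -0.111 to 0.183 for Mag and -0.101 to 0.275 for Ncmap. Both ways of leaving out the high samples were chosen after seeing the data. The cause was not tested.

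Over all genes, the calls (279, 195 and 422) became 976, 729 and 1117 with no filter, in which more genes are tested. DESeq2 called 314 for diet, and 326 were called without the 3 samples. Leaving out 1 sample gave 161 (without TUMOUR STD 10) to 603 (without CHEMO STD 1 and 2) in CHEMO STD versus TUMOUR STD, with 529 without TUMOUR STD 8 and 450 without TUMOUR STD 11. It gave 153 to 266 for diet and 273 (without CHEMO FO 18) to 584 in CHEMO FO versus TUMOUR STD. Low counts limit what Mag, Ncmap, Sox10, Egr2 and Cldn19 can show.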
